A study of Mus musculus with 14 samples.

Results

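The genes described are the nuclear genes for mitochondrial respiratory complex I and for ATP synthase. They were taken by symbol from the RefSeq annotation of the mouse genome GRCm38.p6 (mm10), as every protein-coding gene beginning Ndufa, Ndufb, Ndufc, Ndufs, Ndufv or Atp5. This gave 66 of 21883 protein-coding genes, 49 with an Nduf and 17 with an Atp5 symbol, after 14 pseudogenes among 80 matching symbols were left out. By role they are 7 core and 30 supernumerary complex I subunits, 8 complex I assembly factors, the pair Ndufa4 and Ndufa4l2, 2 intronless copies of Ndufb4, 5 subunits of the F1 head of ATP synthase and 12 of its stalk and membrane part.

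The cells were mouse embryonic stem cells derived from C57BL/6J blastocysts, Mll1fl/fl and carrying Cre-ER TM, a Cre recombinase that tamoxifen switches on. All groups carry these alleles, including the untreated cells. The treated groups received for 9 days and 3 passages either MM-401, a small-molecule inhibitor of Mll1, at 100 µM, or 4-hydroxytamoxifen (4-OHT), to delete Mll1, at 5 µM, on Matrigel with LIF, serum and serum replacement. All groups, untreated cells included, had 5% serum and 15% serum replacement. The labels give no day or passage for the untreated cells, and no group is listed with vehicle alone. Time in culture therefore cannot be told apart from either treatment, nor 4-OHT or active Cre from loss of Mll1. H3K4me1, H3K4me2 and H3K4me3, the histone H3 lysine 4 methyl marks, were profiled by chromatin immunoprecipitation and sequencing in each condition, and Mll1 itself in untreated cells, each as 1 library. With nothing to measure the spread between cultures, no difference between conditions could be tested, and the 95% intervals given cover counting error alone.

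Complex I, at the entry of the electron transport chain, oxidises NADH and pumps protons out of the mitochondrial matrix, and ATP synthase lets the protons return and makes ATP. Nearly all of their subunits come from nuclear genes that are active in most cells and have CpG-rich starts. Such starts typically carry H3K4me3 on the nucleosomes around the start, H3K4me2 somewhat further out and H3K4me1 on the flanks, while H3K4me1 away from starts is typical of enhancers. Mll1 (Kmt2a) is 1 of several enzymes that can methylate this lysine.

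Filtered tags, the sequenced fragments left after duplicates were removed, ran from 12.9 to 61.8 M (1 M is 1000000 tags) per mark library. The MM-401 library was the shallowest for every mark, and its input held 12.2 M tags against 36.6 M in untreated and 55.0 M in 4-OHT cells. Fewer peaks were listed for MM-401 in each mark, and the MM-401 files came from a separate processing folder, so MM-401 and that processing cannot be told apart. Of 8 genes that mark embryonic stem cells, 7 had H3K4me3 near an end in each condition, among them Pou5f1, Nanog and Sox2. Esrrb had no H3K4me3 peak within 2 kb of the ends of its gene record, and the rest of that gene was not read. The targeted gene Kmt2a had H3K4me3 at 107 tags per M in untreated, 118 in MM-401 and 107 in 4-OHT cells, values that do not show whether the deletion took place.

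The promoters were looked at first, since these genes are known targets of the transcription factors NRF1, GABP, YY1 and ERR. RefSeq promoter sequences (GRCm38.p6) of 300 bases, 250 of them upstream, were at hand for 57 of the 66 genes. On either strand, the NRF1 site, GCGCA followed directly by its reverse complement TGCGC, was in 5 of the 57 (8.77%), against 1.33% of 17491 promoters of all protein-coding genes and 1.83% of the 12486 whose gene had an untreated H3K4me3 peak within 2 kb of an end. The shorter NRF1 core TGCGCA, which can overlap that site, was in 24.6% of member promoters against 10.1% and 13.3%. The YY1 core ATGGCGG was in 17.5% against 5.43% and 7.32%, and the ERR element AAGGTCA in 12.3% against 4.06% and 3.15%. The ETS and GABP core CCGGAAG stood closer to its background, at 19.3% against 11.9% and 15.9%, as did CCAAT at 40.4% against 39.2% and 38.9%. TATAAA was in 10.5% against 13.3% and 7.63%. GC content (median 59%) and CpG count (median 20) of member promoters were near those of genes with H3K4me3 (60.3% and 19). A match describes the letters and is not evidence that a factor binds. The following stretches run from 150 bases before the start to 30 bases from it. The first 5 are all the members with the full NRF1 site, and the last 2 set Ndufb4 beside its intronless copy Ndufb4b. Capitals mark any of the searched motifs.
Atp5g2 (chr15:102671018-102671197, minus strand): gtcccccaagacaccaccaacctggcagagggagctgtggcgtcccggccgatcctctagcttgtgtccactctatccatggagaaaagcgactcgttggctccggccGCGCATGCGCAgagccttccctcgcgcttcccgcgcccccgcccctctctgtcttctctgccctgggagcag
Atp5k (chr5:108434370-108434549, minus strand): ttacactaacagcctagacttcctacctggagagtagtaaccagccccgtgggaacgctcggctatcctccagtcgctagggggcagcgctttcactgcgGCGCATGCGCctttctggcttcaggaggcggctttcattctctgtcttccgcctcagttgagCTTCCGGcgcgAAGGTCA
Ndufa11 (chr17:56717612-56717791, plus strand): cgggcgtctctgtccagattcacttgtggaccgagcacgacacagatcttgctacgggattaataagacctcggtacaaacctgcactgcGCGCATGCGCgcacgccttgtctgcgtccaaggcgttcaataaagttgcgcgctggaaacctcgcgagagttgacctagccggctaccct
Ndufaf4 (chr4:24897933-24898112, plus strand): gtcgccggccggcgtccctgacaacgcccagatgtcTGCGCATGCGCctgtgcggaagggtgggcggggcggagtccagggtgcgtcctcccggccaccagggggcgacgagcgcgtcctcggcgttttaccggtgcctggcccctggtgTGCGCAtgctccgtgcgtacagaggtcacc
Ndufaf5 (chr2:140170496-140170675, plus strand): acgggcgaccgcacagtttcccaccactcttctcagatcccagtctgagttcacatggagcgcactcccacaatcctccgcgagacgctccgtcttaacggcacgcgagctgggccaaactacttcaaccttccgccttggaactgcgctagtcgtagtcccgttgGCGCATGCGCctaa
Ndufb4 (chr16:37654339-37654518, minus strand): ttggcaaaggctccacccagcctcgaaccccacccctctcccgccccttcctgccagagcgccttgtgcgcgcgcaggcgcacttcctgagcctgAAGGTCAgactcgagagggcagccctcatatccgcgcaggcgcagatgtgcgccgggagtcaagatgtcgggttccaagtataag
Ndufb4b (chr19:25032958-25033137, plus strand): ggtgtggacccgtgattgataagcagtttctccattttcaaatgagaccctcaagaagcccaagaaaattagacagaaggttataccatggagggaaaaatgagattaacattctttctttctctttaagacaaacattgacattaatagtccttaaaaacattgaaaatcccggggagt

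Atp5g2 encodes one of the copies of the c-ring subunit, Atp5k the e subunit of the membrane part, Ndufa11 a membrane-arm subunit, and Ndufaf4 and Ndufaf5 encode assembly factors. In Ndufaf4 the NRF1 site and an NRF1 core overlap in the capitals, and another core follows near the start. Ndufb4, a membrane-arm subunit, has 23 CpG pairs and 62.3% GC in its 300 bases. Ndufb4b has 5 CpG pairs, 41.3% GC and none of the searched motifs, the lowest CpG count and GC share among the 57.

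Another shared feature was a neighbour that starts on the opposite strand. For 20 of the 57 members with an annotated start (35.1%), a protein-coding gene of the other strand starts within 1 kb, against 9.31% of 17491 genes with an annotated start and 12.8% of 12486 such genes with untreated H3K4me3. Pairs of this kind are Atp5j (coupling factor 6 of the stalk) with Gabpa, the DNA-binding part of GABP, and Ndufa7 with the ribosomal protein gene Rps28. Ndufb5 is paired in this way with Mrpl47 of the mitochondrial ribosome, and Ndufaf5 with Esf1. Counting any gene end within 2 kb of the same H3K4me3 peak, 43 of the 66 members shared peaks with another protein-coding gene and 23 did not. The share of all genes that share a peak was not computed, so this count is not read as a feature of members. At those 43 genes a value belongs to the peak and not to the member alone.

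Nearly every member carried all the H3K4 marks, in every condition. An untreated H3K4me3 peak lay within 2 kb of an end of 65 of 66 genes, where 71.7% of all protein-coding genes had one. The count was 64 of 66 in MM-401 cells (68.5% of all genes) and 64 in 4-OHT cells (71.7%). H3K4me2 was at 65 members in each condition, against 75.6% of all genes in untreated, 72.7% in MM-401 and 76.1% in 4-OHT cells. H3K4me1 was at 64 untreated members (76.2% of all genes), 63 after MM-401 (71.7%) and 65 after 4-OHT (77.2%).

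The genes outside this pattern were the intronless copies and Ndufc1. Ndufb4c had no peak of any list. Ndufb4b had an untreated H3K4me3 peak of 934 bp with 57 tags (2.26 tags per M, 1.71 to 2.92), whose summit lay 2577 bp from the start, and no H3K4me3 peak after either treatment, a loss found at 4.63% of genes in MM-401 and 0.988% in 4-OHT cells. Its H3K4me2 peak held 107 tags in untreated, 37 in MM-401 and 106 in 4-OHT cells, which is 2.67, 1.87 and 2.18 tags per M. H3K4me1 was listed after 4-OHT alone, in the deepest library of that mark, with 67 tags (1.08 per M). The parent gene Ndufb4 had H3K4me3 at 38.8 tags per M in untreated, 49.0 in MM-401 and 49.6 in 4-OHT cells. Its copy thus stood more than an order of magnitude below it where it had a peak at all. Ndufc1, a small membrane-arm subunit, had H3K4me1 at 8.22 tags per M (7.32 to 9.20) in untreated and 8.08 (7.39 to 8.82) in 4-OHT cells, and no H3K4me1 peak after MM-401. Such a loss was found at 6.46% of all genes with untreated H3K4me1, in a library of 22.2 M tags against 36.9 M.

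The amount of H3K4me3 is given as tags of the peaks within 2 kb of either end, per M filtered tags. In untreated cells the 65 members with a peak had a median of 61.9, from 2.26 to 266, against 45.0 over 15685 genes with a peak. The median of the widest peak was 3148 bp against 2794 bp, and of tags per M per kb 18.7 against 13.3. Above the median of all genes stood 53 of the 65. The F1 head had the highest median, 106 tags per M, and the other main classes lay between 54.6 (core subunits) and 66.9 (stalk and membrane part).

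Among F1 genes, Atp5b (the catalytic beta subunit) had 266 tags per M (260 to 272) untreated, 320 (310 to 330) in MM-401 cells and 286 (280 to 292) in 4-OHT cells, the highest level of all members in each condition. Atp5d (delta subunit) followed with 233, 304 and 261, and Atp5e (epsilon subunit) was lowest with 35.7, 48.0 and 38.6. By these sums, the F1 genes spanned more than 7-fold in untreated cells, in the same order Atp5b, Atp5d, Atp5a1, Atp5c1, Atp5e in each condition. The sums cover more than the starts, so the span and the order need not hold at the starts alone. The Atp5b peak at the start held 90.4, 123 and 101 tags per M in untreated, MM-401 and 4-OHT cells, and a wider peak beyond the other end, in a region shared with Baz2a, held 176, 196 and 185. Atp5d had 3 peaks within reach, in a region with Cbarp and Midn. In the stalk and membrane part, Atp5j had 125, 148 and 141 tags per M in untreated, MM-401 and 4-OHT cells, and Atp5mpl, a small proteolipid, 32.2, 45.5 and 36.0.

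Among complex I core subunits, Ndufv2, which holds an iron-sulphur cluster of the NADH-binding arm, had 136, 154 and 133 tags per M in untreated, MM-401 and 4-OHT cells. Ndufs1, the largest subunit of that arm, had 124, 167 and 146. Of the supernumerary subunits, Ndufb6 was highest, with 178, 237 and 194, of which the peak at its start held 64.5, 86.0 and 65.5 and a wider peak at the other end the rest. Smim27 and Topors have ends in its peaks. Ndufa8 was lowest, with 34.0, 39.9 and 33.5. The assembly factors ran from Ndufaf4, with 30.9, 30.9 and 32.8, to Ndufaf3, with 120, 142 and 125. By the widest untreated H3K4me3 peak near either end, Ndufa4l2 (10293 bp), Atp5b (9650 bp) and Atp5d (7070 bp) were broadest. Ndufb4b (934 bp), Ndufa3 (2076 bp) and Atp5e (2132 bp) were narrowest. The untreated peak at the start itself was 3996 bp wide at Atp5b and 3209 bp at Atp5d.

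**Figure D1:**
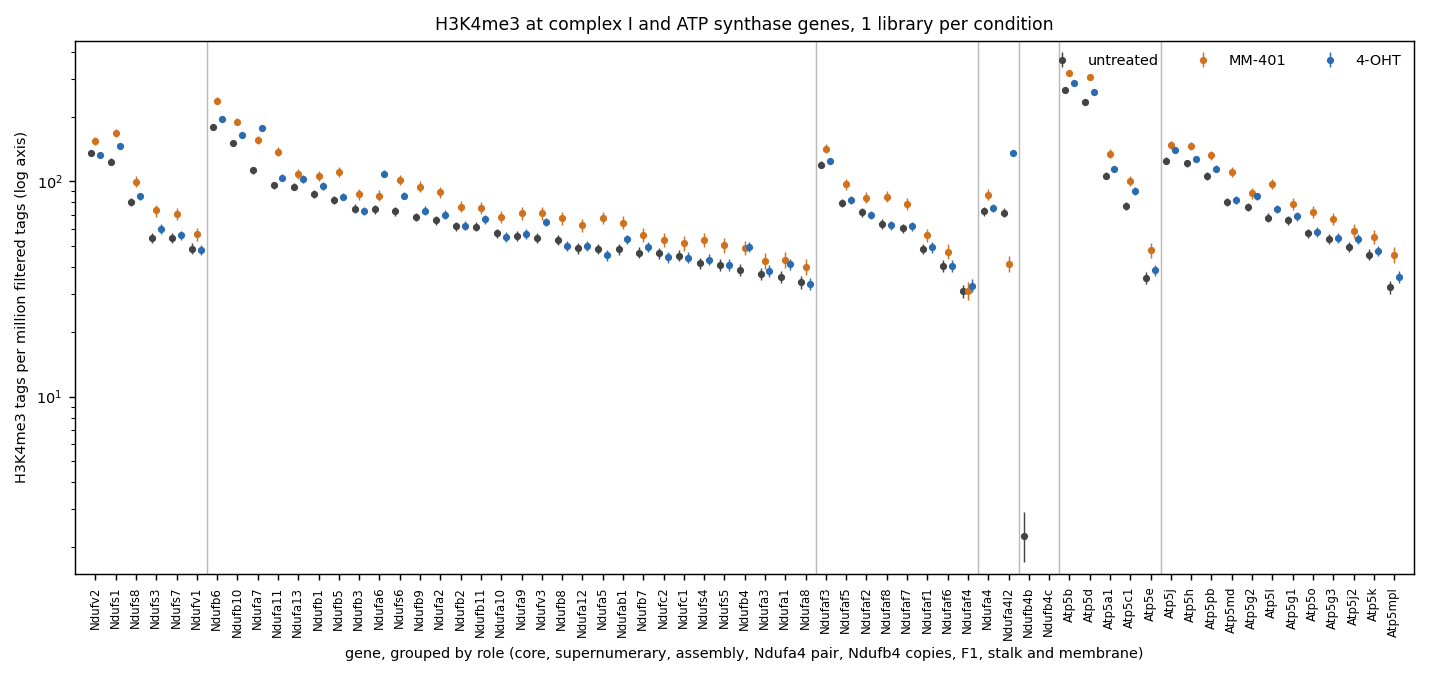
H3K4me3 tags per M (log axis) at 65 members in untreated (grey), MM-401 (orange) and 4-OHT (blue) cells, 1 library each, with 95% counting intervals; grey lines separate the roles. Atp5b stands highest at 266 to 320 tags per M, a sum that includes a wide peak in a region shared with Baz2a. MM-401 lies above untreated at nearly every gene with a peak in both, and Ndufa4l2 is an exception.

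After MM-401, H3K4me3 per M was higher at almost all members, by a small amount. Of the 64 members with a peak in all 3 conditions, 62 were above the untreated value, where 68.5% of 14953 genes were. The median log2 ratio was 0.31, against 0.14 over all genes. None reached 1.5-fold higher (1.96% of all genes did) and Ndufa4l2 alone was at least 1.5-fold lower (6.21% of all genes). The peaks themselves hardly differed in summed width (median log2 ratio 0.04 against 0.03), and tags per kb carried the difference (0.27 against 0.11). All 30 supernumerary subunits, all 12 stalk and membrane subunits, all 5 F1 subunits and all 8 assembly factors were higher, with role medians between 0.24 and 0.39.

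Members had a higher untreated level than the median gene. Between the members' own quartiles of untreated H3K4me3 (48.4 to 80.6 tags per M), the 33 members had a median log2 ratio of 0.33 and the 4368 other genes one of 0.21, with 86.7% of those genes higher. The MM-401 library had a redundant rate, the share of tags removed as duplicates, of 0.42 against 0.60 in untreated and 0.67 in 4-OHT cells, a modelled fragment of 293 bp against 184 and 186 bp, and 85.6% of its tags in peaks against 82.5% and 87.5%. The part of these values in the difference was not tested. Scaled to tags in peaks in place of all tags, the median log2 ratio was 0.25.

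Atp5l (subunit g) had the highest log2 ratio, 0.52 (0.42 to 0.63), from 67.8 tags per M (64.7 to 71.1) untreated to 97.4 (92.1 to 103) after MM-401, with 74.4 after 4-OHT. Ndufa11 went from 95.9 to 137 (log2 ratio 0.52), with 104 after 4-OHT. Atp5mpl (0.50), Ndufs6 (0.48), a subunit of the zinc-binding site, and Ndufa5 (0.48) completed the 5 highest. The counting intervals of untreated and MM-401 values did not overlap at Atp5l and Ndufa11. At the other end, Ndufaf4 did not differ beyond counting error (0.00, -0.17 to 0.18), and Ndufv2 (0.19) and Ndufc1 (0.19) were next.

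Ndufa4l2, a homologue of Ndufa4 known for its induction in low oxygen, was lowest after MM-401 (log2 ratio -0.79, -0.93 to -0.65) and highest after 4-OHT (0.92, 0.84 to 1.00). Its untreated peak of 10293 bp, with 71.5 tags per M (68.2 to 74.9), covered the whole gene and came within 2 kb of ends of Shmt2 and Stac3. After MM-401 the region held 4 peaks with 41.3 tags per M (37.9 to 45.0), and after 4-OHT 4 peaks with 135 (131 to 140). Of the 4-OHT tags, 62.0 per M lay in a separate peak of 3896 bp on the side away from the start, and 67.0 in the peak of 8496 bp over the gene. With peaks at the inferred start alone, the log2 ratio after 4-OHT was -0.09. Ndufa4, which is now placed with complex IV, had 72.7, 86.8 and 75.2 tags per M in untreated, MM-401 and 4-OHT cells, like other members.

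After 4-OHT, H3K4me3 stayed close to untreated. The median log2 ratio was 0.08 against 0.01 over all genes, 52 of 64 members were higher (52.9% of all genes), 2 were at least 1.5-fold higher (2.45%) and 0 lower (0.863%). The direction depends on the scaling, as the median was -0.0032 with tags scaled to tags in peaks and -0.040 per kb. Per kb, 45 of 64 members were lower, as were 10188 of 14953 genes, whose median was -0.063. Between the members' quartiles of untreated H3K4me3, the median log2 ratio per M was 0.044 for 33 members and 0.018 for 4368 other genes. Higher were 26 of these members and 57.2% of the other genes. Besides Ndufa4l2, the other member at least 1.5-fold higher was Ndufa7, a supernumerary subunit. It had 113 tags per M (109 to 117) untreated, 155 (149 to 162) in MM-401 cells and 176 (171 to 182) in 4-OHT cells (log2 ratio 0.65). Its peak went from 5518 to 11376 bp and grew upstream, on the side of Rps28. With tags multiplied by the share of the peak's width within 2 kb of the ends, the log2 ratio of Ndufa7 was -0.40. Tags inside that window were not counted, so a wider peak lowers this value through its width. Ndufa6 came next (0.55) as a second peak came within reach. The lowest was Ndufa5 (-0.10, -0.22 to 0.01), within counting error of no change.

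**Figure D2:**
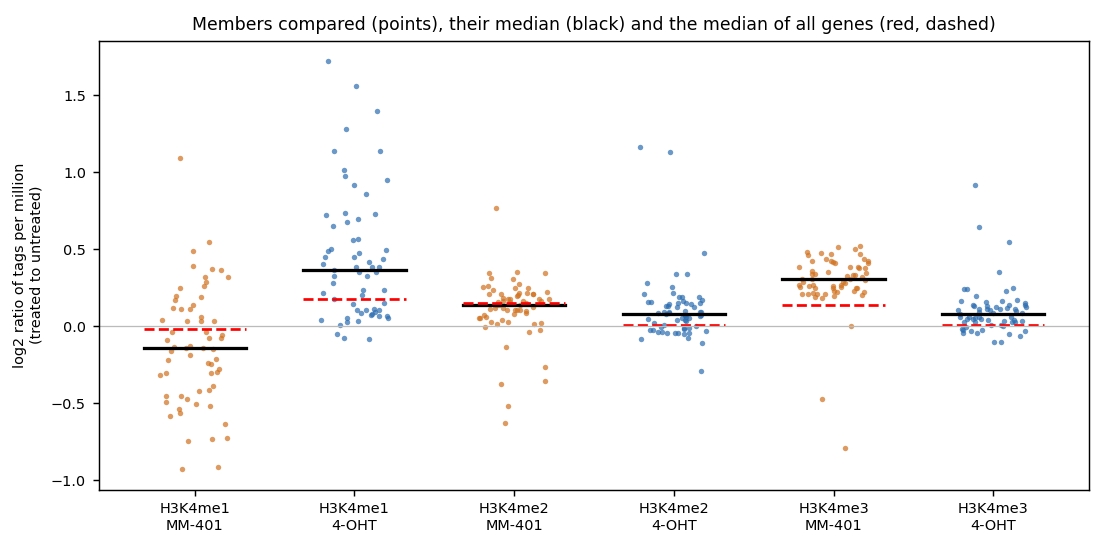
Log2 ratio of tags per M, treated to untreated, for each mark and treatment; points are members with a peak in all 3 conditions, black lines their medians and red dashed lines the medians of all genes. H3K4me3 after MM-401 forms a tight group around 0.31 with Ndufa4l2 farthest below it, and H3K4me1 after 4-OHT has the longest upper tail, to 1.72.

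H3K4me2 differed little from untreated cells at most members. Untreated levels had a median of 31.4 tags per M, from 2.67 at Ndufb4b to 155 at Atp5b. After MM-401 the median log2 ratio over 65 members was 0.14 against 0.15 over 15872 genes, with 56 higher (77.7% of all genes), 1 at least 1.5-fold higher (2.56%) and 1 lower (3.14%). Ndufa11 was the higher one, with 44.3 tags per M (42.2 to 46.4) untreated, 75.3 (71.5 to 79.2) in MM-401 cells and 51.3 (49.3 to 53.3) in 4-OHT cells. Ndufb8, a membrane-arm subunit, was the lower one, with 36.0, 23.3 and 35.4. Its peak at the start held 19.7 tags per M untreated and 23.3 after MM-401, and the difference came from a second peak of 16.3 tags per M near the other end that was not listed after MM-401.

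After 4-OHT the median log2 ratio of H3K4me2 was 0.08 against 0.01, with 47 of 65 members higher (53.3% of all genes), 2 at least 1.5-fold higher (4.45%) and 0 lower (1.22%). The direction turned under other scalings, with medians of -0.043 scaled to tags in peaks and -0.15 per kb. Per kb, 57 of 65 members were lower, as were 11152 of 15872 genes, whose median was -0.072. Summed width had a median log2 ratio of 0.22 against 0.06. Ndufaf3 had 66.3 tags per M untreated, 79.1 after MM-401 and 149 after 4-OHT (log2 ratio 1.17), as its peak of 6759 bp became 2 peaks of 20818 bp in all, in a region with Dalrd3, Impdh2 and Wdr6. Ndufs1 had 50.4, 54.2 and 110 (log2 ratio 1.13). There a peak of 15830 bp with 51.7 tags per M was listed after 4-OHT at the end of the gene away from the peak shared with Eef1b2, and the peak at that shared end held 50.4 and 58.7 tags per M in untreated and 4-OHT cells.

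For H3K4me1 the untreated level had a median of 12.7 tags per M over 64 members, from 2.85 at Ndufa1 to 78.7 at Ndufs1, against 11.1 over all genes with a peak. After 4-OHT the median log2 ratio over 63 members was 0.36 against 0.18 over 15576 genes. Higher were 60 of 63 (73.2% of all genes), 17 of them at least 1.5-fold (27.0%, against 18.7%), and 0 were at least 1.5-fold lower (2.39%). Of the 20 compared members that shared no H3K4me3 peak with another gene, 2 (10.0%) were at least 1.5-fold higher. The share over all genes sharing no peak was not computed. The difference lay in width. Summed width had a median log2 ratio of 0.38 against 0.23, with 23 members at least 1.5-fold wider (23.8% of all genes) and 62 of 63 wider (85.5%), while tags per kb had one of -0.05 against -0.08. Assembly factors had the highest role median, 0.51, and core subunits the lowest of the main classes, 0.15.

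The highest was Ndufaf5, a hydroxylase that acts on a core subunit during assembly. Its H3K4me1 held 7.38 tags per M (6.53 to 8.31) untreated, 7.97 (6.84 to 9.23) in MM-401 cells and 24.3 (23.1 to 25.6) in 4-OHT cells, a log2 ratio of 1.72. The downstream peak changed little, from 1562 to 1735 bp, and the upstream one went from 2002 to 10028 bp, extending away from the gene along Esf1. Ndufaf1 had 4.53, 4.41 and 13.4 tags per M (log2 ratio 1.56 after 4-OHT), with a summed width of 2514, 2253 and 9437 bp. Ndufv2 had 20.7, 12.5 and 54.4 (2.63-fold after 4-OHT), with peaks on both sides of the start growing, inward from 3195 to 11717 bp and outward from 4720 to 10034 bp. Ndufb5 had 17.7, 22.9 and 43.0 (1.28), mostly in a peak over the first part of the gene that went from 1698 to 9666 bp. Ndufa3 had 5.48, 2.88 and 12.1 (1.14). At these 5 genes the untreated and 4-OHT intervals did not overlap, and Ndufaf5, Ndufaf1, Ndufv2 and Ndufb5 had H3K4me1 over several kb more.

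Ndufs1 had an H3K4me1 peak of 17208 bp in untreated, 14611 bp in MM-401 and 32329 bp in 4-OHT cells, at the end away from Eef1b2, the widest of any member in untreated and 4-OHT cells. The lowest ratio after 4-OHT was at Ndufa4l2 (-0.08, -0.16 to 0.00), where a single peak was listed, 16852 and 16970 bp wide, in untreated and 4-OHT cells. The 4-OHT H3K4me1 library was the deepest, at 61.8 M tags against 36.9 M in untreated cells, and the part of depth in the widths was not tested. Scaled to tags in peaks, the median log2 ratio was 0.29. With tags multiplied by the share of the peak's width within 2 kb of the ends, it was 0.20. The share of members at least 1.5-fold higher was then 7.94% in place of 27.0%, and no all-gene share was computed in that way.

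After MM-401, H3K4me1 lay slightly lower at these genes. The median log2 ratio was -0.14 against -0.02 over all genes, with 23 of 63 members higher (47.9% of all genes), 1 at least 1.5-fold higher (5.80%) and 6 lower (13.3%). Summed width was larger at 12 members (23.9% of all genes), with a median log2 ratio of -0.24 against -0.17, and tags per kb one of 0.20, the same as over all genes. Scaled to tags in peaks, which held 58.5% of the MM-401 and 63.7% of the untreated tags, the median log2 ratio was -0.015, so the lower level depends on the scaling. The 5 lowest were Ndufa3 (-0.93), Ndufb1 (-0.91), Ndufs6 (-0.75), Ndufv2 (-0.73) and Atp5o (-0.72), the oligomycin-sensitivity subunit that joins the stalk to F1. Ndufb1 had 12.4 tags per M (11.3 to 13.5) untreated, 6.57 (5.55 to 7.73) in MM-401 cells and 19.8 (18.7 to 20.9) in 4-OHT cells. The sixth, Ndufaf2, an assembly factor that is a paralogue of Ndufa12, had 10.2, 6.57 and 15.1. With tags multiplied by the share of the peak's width within 2 kb of the ends, Ndufs6 was at 0.073. Per kb, Ndufa3, Ndufb1, Ndufv2 and Atp5o were at 0.33, 0.026, 0.040 and 0.30. The share of members at least 1.5-fold lower, 9.52%, was 15.9% with peaks within 1 kb of the ends and 5.00% among members sharing no peak. Neither of these alternatives was computed over all genes.

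Ndufa11 went the other way after MM-401. It had 34.0 tags per M (32.1 to 35.9) untreated, 72.5 (69.0 to 76.1) in MM-401 cells and 64.0 (62.1 to 66.1) in 4-OHT cells. The peak upstream of its start went from 2170 bp to 10894 and 10521 bp, on the side of Vmac, and the peak downstream stayed at 3255, 3182 and 3546 bp. This was also the member with the highest H3K4me2 ratio after MM-401. With peaks within 1 kb of the ends, the wide upstream peak was no longer within reach after MM-401 and the log2 ratio was -0.46 in place of 1.09. Ndufa10 (0.55), Ndufb9 (0.49), Ndufa5 (0.39) and Ndufaf6 (0.37) followed.

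**Figure D3:**
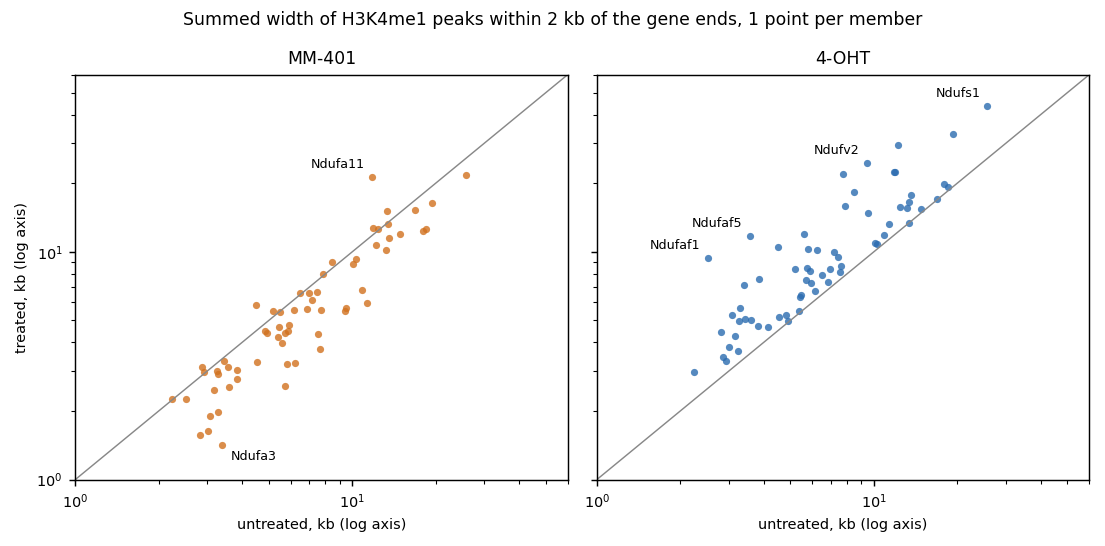
Summed width (kb, log axes) of H3K4me1 peaks within 2 kb of the ends of each member, untreated against MM-401 (left) and 4-OHT (right); the line marks equal width. After 4-OHT 62 of 63 members with a peak in all conditions lie above the line, and after MM-401 51 lie below it, with Ndufa11 far above.

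How H3K4me1 sits beside H3K4me3 was read at the 64 members with an H3K4me3 peak within 2 kb of the start in all 3 conditions, beside 14617 such genes. H3K4me3 and H3K4me2 each lay over the start at all 64 members in every condition, close to the share of all such genes. That share was 95.5%, 95.4% and 95.7% for H3K4me3 in untreated, MM-401 and 4-OHT cells, and 96.9%, 96.6% and 96.9% for H3K4me2. For H3K4me3 the choice of genes favoured this outcome, and 8 of the member starts were themselves inferred from untreated H3K4me3. H3K4me1 left the start free more often. It lay over the start at 28 members untreated (56.1% of all such genes), 22 after MM-401 (51.9%) and 31 after 4-OHT (65.6%). Instead it stood on both sides with a gap at the start at 35 members untreated (36.7% of all such genes), 35 after MM-401 (30.8%) and 33 after 4-OHT (29.8%). The gap was not particular to members. At 24 genes for common forms of complexes II to IV and cytochrome c, H3K4me1 lay over the start at 45.8% untreated, 29.2% after MM-401 and 54.2% after 4-OHT. It stood on both sides at 50%, 37.5% and 41.7% of these 24 genes. Between the members' quartiles of untreated H3K4me3, H3K4me1 lay over the start at 36.4% of 33 members and 43.7% of 4278 other genes untreated, 27.3% against 41.6% in MM-401 cells, and 39.4% against 54.8% in 4-OHT cells.

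In profile, mean H3K4me1 cover at members went from 95.3% at 750 bp upstream to 39.0% at 150 bp downstream of the start in untreated cells and reached 100% at 1150 bp downstream. Over all such genes the dip was to 54.0%. After MM-401 the dip at members was 28.6% (50.4% over all genes), and after 4-OHT 46.6% (62.7%). The H3K4me1 summit lay a median of 1091, 1227 and 1219 bp from the start in untreated, MM-401 and 4-OHT cells, and the H3K4me3 summit 238, 298 and 264 bp. Despite the gap, the list peaks overlapped widely, as H3K4me1 covered a median of 88.8% of the H3K4me3 peak untreated, 84.2% after MM-401 and 92.8% after 4-OHT, against 90.7%, 87.8% and 95.6% over all genes. In amount, H3K4me1 tags per M were 0.201, 0.138 and 0.269 of H3K4me3 tags per M at members (medians), and 0.267, 0.237 and 0.326 over all genes.

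Both flanks differed between conditions. From 500 to 3000 bp downstream, mean H3K4me1 cover at members was 77.7% untreated, 71.7% after MM-401 and 90.7% after 4-OHT, against 69.6%, 64.0% and 75.2% over all genes. The upstream flank had 62.4%, 51.7% and 70.3%, against 51.5%, 45.1% and 57.5%. Single genes changed arrangement, and the share of all genes making each change was not computed. H3K4me1 downstream alone went from 1 to 6 of 64 members after MM-401, and from 4.62% to 10.9% of the 14617 genes. Those with no H3K4me1 there went from 1.42% to 4.09% of the 14617 genes. After MM-401, 5 members went from H3K4me1 over the start to H3K4me1 downstream alone (Atp5e, Atp5k, Ndufs4, Ndufs5 and Ndufv3), and Ndufc1 had none left. Ndufa3 went from both sides to downstream alone, and Ndufa10, Ndufb4, Ndufs6 and Ndufs7 from both sides to over the start. Atp5g2, Atp5g3, Ndufa9, Ndufaf7 and Ndufv1 went from over the start to both sides. After 4-OHT, Ndufa3, Ndufb4, Ndufb9 and Ndufs6 went from both sides to over the start, and Ndufaf3 and Ndufv1 the other way. Ndufa8, with H3K4me1 downstream alone in untreated cells, had it over the start after either treatment.

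**Figure D4:**
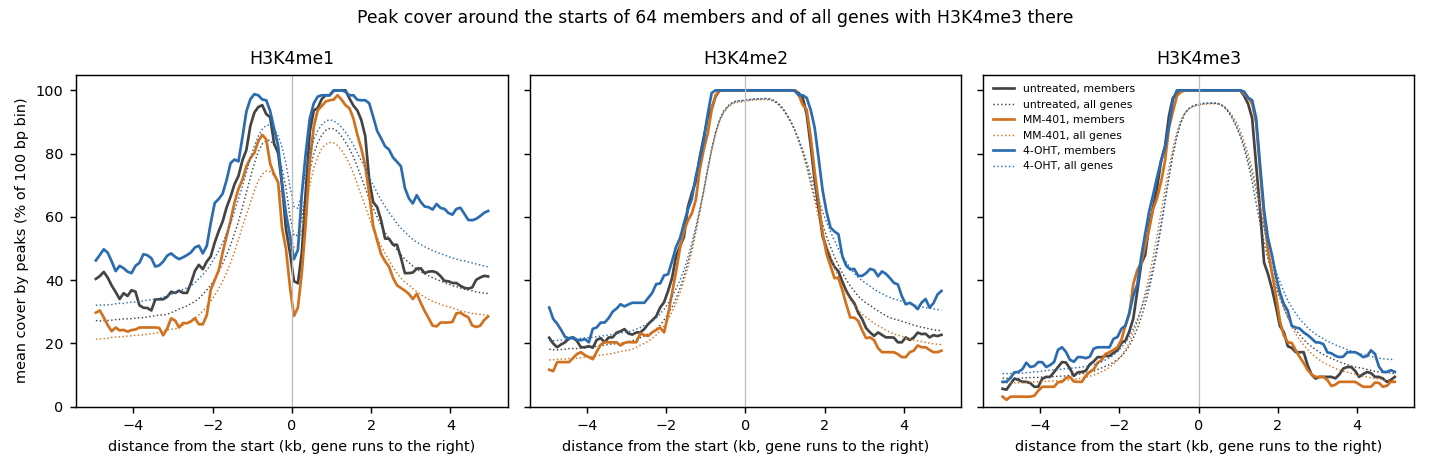
Mean share of each 100 bp bin covered by peaks of H3K4me1, H3K4me2 and H3K4me3 within 5 kb of the start (gene to the right) at 64 members (solid) and 14617 genes with H3K4me3 there (dotted), per condition. H3K4me1 at members dips to 28.6 to 46.6% next to the start between shoulders that reach 98.4 to 100% downstream, while H3K4me2 and H3K4me3 are at 100% over the start in each condition.

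Mll1 peaks were listed at 4 of the 66 members, where 6% of all genes had one. They were at Atp5g1 and Atp5g2, both of which encode the c-ring subunit, Ndufc1 and the core subunit Ndufs7. The peaks were 134 to 162 bp wide with 9 to 12 tags, where the median of all 4004 nuclear Mll1 peaks was 11 tags, and only 0.285% of the tags of that library lay in peaks. Their summits lay 33 bp downstream of the start at Atp5g1, and upstream by 401 and 525 bp at Atp5g2 (2 peaks), 352 bp at Ndufc1 and 52 bp at Ndufs7. The false discovery rate listed for them was 1.73 to 3.90%. H3K4me3 at these genes was 66.0, 78.6 and 68.7 tags per M at Atp5g1 in untreated, MM-401 and 4-OHT cells, 76.2, 88.0 and 85.1 at Atp5g2, 45.1, 51.5 and 44.1 at Ndufc1, and 54.4, 70.9 and 56.1 at Ndufs7. H3K4me3 was thus higher after MM-401 at each of the 4, as at most other members.

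The other nuclear genes of oxidative phosphorylation were read in the same way. Of 24 genes for the common forms of complexes II, III and IV and for cytochrome c, 22 could be compared for H3K4me3. After MM-401 all 22 were higher (68.5% of all genes), with a median log2 ratio of 0.33 and none at least 1.5-fold higher (1.96% of all genes). Examples are Sdha, the flavoprotein of complex II (55.6 to 69.9 tags per M), and Cox4i1 of complex IV (119 to 160). For H3K4me1 after 4-OHT, 23 of 23 were higher (73.2% of all genes), 8 of them at least 1.5-fold (18.7%), with a median of 0.36. Cox5a (2.21) and Sdhc (1.54), the cytochrome subunit of complex II, were highest. Cox5a had no H3K4me3 peak within 2 kb of the ends of its gene record in any condition, so its H3K4me1 value is not one at its promoter. For H3K4me1 after MM-401 the 23 genes had a median of -0.05, with 10 higher (47.9% of all genes) and 5 at least 1.5-fold lower (13.3%). All 5 were among the 9 complex IV genes compared, which had a median of -0.60, and Cox5a was lowest (-3.06). Of the tissue-restricted forms of complex IV, Cox4i2 (12.1 to 6.34 tags per M of H3K4me3 after MM-401), Cox7a1 (11.9 to 9.13) and Cox7b2 (4.55 to 2.09) were lower and Cox6b2 (69.6 to 106) was higher. Of 12 genes for regulators of these pathways, 10 could be compared for H3K4me3, and 9 were higher after MM-401 (68.5% of all genes) with a median of 0.16, among them Nrf1 (107 to 120 tags per M) and Yy1 (157 to 176), and Gabpa, whose peak is that of Atp5j. Esrrb and Gabpb1 had no H3K4me3 peak within 2 kb of the ends of their gene records.

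Among members the 3 marks went together to differing degrees. Across 64 members in untreated cells, Pearson's r of tags per M was 0.83 for H3K4me2 with H3K4me3, 0.75 for H3K4me1 with H3K4me2 and 0.50 for H3K4me1 with H3K4me3. After MM-401 the last was 0.42 (63 members) and after 4-OHT 0.61. Genes of 1 library share its depth and neighbours share peaks, so these are descriptions across genes. By these sums, the gene with the most H3K4me3, Atp5b, was not the one with the most H3K4me1, which was Ndufs1 in each condition. At both genes the sum includes a wide peak at the end away from the start.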

How the data were processed

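Peak lists of 10 libraries were used, and 4 inputs served the authors as controls. Per the file headers, the authors called peaks per library with MACS 1.4.2 (p cutoff 1e-05), and the submitters' processing notes name Bowtie2, SAMtools 1.5, MACS2 and mm10. The authors' counts per peak are tags without duplicates and carry no depth scaling. A deposited score made from the log10 of each p-value served to rank peaks. The deposited fold enrichment (ratio) was not used. False discovery rates are deposited in percent, and widths and summit positions are as deposited. Tags of whole peaks within 2000 bp of either gene end were summed, divided by filtered tags and given per M (1000000), with exact Poisson 95% intervals, so a neighbouring peak coming within reach can move a value. Log2 ratios used genes with a peak in all 3 conditions, and called means at least 1.5-fold. Intervals of log2 ratios come from tag counts alone. Depth was 12.9 to 61.8 M tags. Starts were annotated for 57 members and inferred from H3K4me3 for 8. The members, lists and roles were chosen with earlier results of these data known, and the comparison within quartiles of level was added after seeing the data. Named in full were members without H3K4me3, those with Mll1, the 3 widest and 3 narrowest H3K4me3 peaks, the 5 highest and 5 lowest ratios (50 tags or more) per mark and treatment, and those losing or gaining all peaks. The ratio code was tested on simulated data. Python 3.11.15, pandas 2.3.3, numpy 2.4.6, scipy 1.17.1 and matplotlib 3.10.9 were used. The values of 1 member are not reported here, though it is in the counts and medians.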

Additional observations from a re-analysis of the deposited data

How the results depend on the processing

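No paired analysis was possible because each group is 1 library, and for the same reason there was no replicate to leave out. Alternatives moved or reversed the following values, and the cause was not tested beyond what each alternative counts. Their values are of members alone, so the shares below are not to be set against the all-gene shares above.

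The median log2 ratio of H3K4me3 after MM-401 stayed between 0.25 and 0.32 under all 10 alternatives. Per kb of peak, medians were -0.054 for H3K4me1 after 4-OHT (reversed), 0.20 for H3K4me1 after MM-401, -0.15 for H3K4me2 after 4-OHT and -0.040 for H3K4me3 after 4-OHT. With tags per M in peaks, H3K4me2 after 4-OHT was at -0.043. With tags multiplied by the share of the peak's width within 2 kb of the ends (below, within 2 kb), H3K4me1 after 4-OHT was at 0.20. That alternative takes tags as even along a peak.

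Shares of members at least 1.5-fold higher moved as follows. For H3K4me1 after 4-OHT the share was 10.0% among members sharing no peak, 7.94% within 2 kb and 0% per kb. For H3K4me1 after MM-401 it was 4.76% with peaks within 1 kb, at the inferred start, or scaled to tags in peaks, 6.35% with lists of equal number, 3.17% per kb or at the annotated start, and 0% among members sharing no peak. For H3K4me2 after MM-401 it was 0% within 1 kb, at the inferred or annotated start and among members sharing no peak, 3.08% within 2 kb and 4.62% per kb. For H3K4me2 after 4-OHT it was 4.69% within 1 kb, 1.54% at either start, and 0% for unshared members, within 2 kb and per kb. For H3K4me3 after MM-401 it was 1.56% at the annotated start and within 2 kb and 3.13% per kb. For H3K4me3 after 4-OHT it was 1.56% at either start, in-peak scaled or within 2 kb, and 0% per kb or for unshared members.

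Shares at least 1.5-fold lower were 15.9% (1 kb), 5.00% (unshared) and 0% (per kb) for H3K4me1 after MM-401. For H3K4me2 after MM-401 they were 3.08% (either start), 4.55% (unshared) and 0% (per kb), and after 4-OHT 7.69% (per kb) and 1.54% (within 2 kb). For H3K4me3 they were 0% (unshared) after MM-401 and 1.56% (per kb, within 2 kb) after 4-OHT. Among the 23 members sharing no peak, 87.0% had H3K4me1 after MM-401 and 17.4% had Mll1.

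Single genes reversed too. Ndufa11 (H3K4me1, MM-401) was at -0.46 with peaks within 1 kb. Ndufb8 (H3K4me2, MM-401) was at 0.24 within 1 kb and at either start, 0.20 within 2 kb and 0.30 per kb. Ndufa4l2 (H3K4me3, 4-OHT) was at -0.093 at either start and -0.062 within 2 kb, and Ndufa7 at -0.40 within 2 kb and per kb. Ndufs6 (H3K4me1, MM-401) was at 0.073 within 2 kb. Per kb, Ndufa3 was at 0.33, Ndufb1 at 0.026, Ndufv2 at 0.040 and Atp5o at 0.30 (H3K4me1, MM-401), Ndufaf5 at -0.0014 and Ndufaf1 at -0.35 (H3K4me1, 4-OHT), and Ndufaf3 at -0.46 and Ndufs1 at -0.60 (H3K4me2, 4-OHT). The alternative at the annotated start was chosen after seeing the data.

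Depth limits weak peaks most in the MM-401 lists, so a missing peak there is not evidence of a missing mark. Sums over whole peaks grow with peak width, and at 43 members they include a neighbour's end.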
